A study of Mus musculus with 6 samples.

Results

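Imprinted genes were examined in RNA-seq data of muscle stem cells (MuSCs) from mice with and without the deletion of Dio2, the gene of the deiodinase D2. The genes were 10 imprinted genes that stem cells of muscle are known to express, taken by name: Dlk1, Meg3, Rian, Mirg and Dio3 of the Dlk1-Dio3 locus on chromosome 12, and H19, Peg3, Plagl1, Grb10 and Mest elsewhere in the genome. Of these 10, 9 were among the 31053 genes listed with counts and 8 were among the 11633 genes tested. Rian was not analysed here. Dio3 had values but was below the expression minimum, a mean of more than 10 normalized counts.

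The cells were isolated by their GFP, which a Pax7 reporter makes in MuSCs, from resting hindlimb muscles of tamoxifen-treated mice aged 3 to 4 months. The 3 control mice (WT; c124, c129 and c130) carried Pax7nGFP/+ with Pax7+/+ and Dio2Fl/Fl, and the 3 knockout mice (cD2KO; fl125, fl126 and fl128) carried Pax7nGFP/+ with Pax7-CreERT2/+ and Dio2Fl/Fl. Floxed Dio2 alleles, the GFP reporter and tamoxifen were thus shared by both groups, and what set the groups apart was the Cre allele together with its effect on Dio2. The Cre acts in cells that express Pax7, and the study describes depletion of D2 in most but not all MuSCs. Each mouse gave 1 library. Values are listed below in the order c124, c129 and c130 for WT and fl125, fl126 and fl128 for cD2KO, and these names stand for the libraries so labelled.

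An imprinted gene is transcribed mainly from the chromosome inherited from one parent. In the Dlk1-Dio3 locus the paternal chromosome expresses the protein-coding genes Dlk1, Rtl1 and Dio3, and the maternal chromosome expresses the noncoding RNAs Meg3, Rian and Mirg, which host snoRNAs and a large cluster of miRNAs. Dio3 encodes the deiodinase D3, which inactivates thyroid hormone and so works against D2, which activates it. Meg3 and the miRNAs of the locus are abundant in quiescent stem cells of muscle and blood. The counts do not separate the parental alleles, so what follows concerns levels and not imprinting itself.

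The locus from the start of Dlk1 to the end of Dio3 spans chr12:109452823-110281097 of mm10, or 828 kb. Dlk1, Meg3, Rian, Mirg and Dio3 lie on the plus strand, and Rtl1 on the minus strand. GENCODE M21 annotates 118 genes there, of which 67 are miRNA genes and 23 snoRNA genes. Of the 118, 15 were analysed here, 7 had at least 1 count and 4 were tested (Dlk1, Meg3, Mirg and the noncoding RNA B830012L14Rik). Dlk1 and Meg3 are 77.7 kb apart, Meg3 and Mirg 158 kb, and Mirg and Dio3 529.6 kb. Dio2 itself lies on the same chromosome, 18.7 Mb from Dlk1.

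Mirg was the 1 member called higher in cD2KO at an unadjusted p under 0.05, and it hosts miRNAs of the locus, so their sequences are given first. The RefSeq table for GRCm38.p6 placed 14 hairpins with 26 mature miRNAs inside Mirg. Of these 26, 8 lay in annotated exons of Mirg and 18 in introns. The miRNAs themselves were not analysed here. Mature sequences from several of these hairpins, with both arms for miR-410, run as follows, 5′ to 3′, with the seed (bases 2 to 8, by which a miRNA pairs with its targets) in capitals, from the start of Mirg towards its end.
mmu-miR-382-5p: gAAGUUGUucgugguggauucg
mmu-miR-134-5p: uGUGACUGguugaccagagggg
mmu-miR-485-3p: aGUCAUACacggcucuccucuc
mmu-miR-453: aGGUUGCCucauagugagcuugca
mmu-miR-154-3p: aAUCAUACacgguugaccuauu
mmu-miR-496a-5p: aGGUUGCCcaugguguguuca
mmu-miR-377-3p: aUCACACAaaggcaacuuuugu
mmu-miR-409-3p: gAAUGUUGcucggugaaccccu
mmu-miR-369-3p: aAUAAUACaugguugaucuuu
mmu-miR-410-5p: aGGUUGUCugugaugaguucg
mmu-miR-410-3p: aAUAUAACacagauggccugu

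Among these, miR-453 (chr12:109735669-109735692) and miR-496a-5p (chr12:109739132-109739152) have the same seed. Both are in introns of Mirg. The seed of miR-410-5p (chr12:109743729-109743749, exonic in Mirg) is also that of miR-494-5p, which is encoded before the start of Mirg at chr12:109715334-109715355 and reads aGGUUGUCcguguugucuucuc. From Dlk1 to Dio3 the table held 61 hairpins and 113 mature names, and 9 seeds occurred under more than 1 name. Other members host fewer miRNAs. Meg3 holds 2 hairpins, among them miR-770 in an exon, H19 holds miR-675 in an exon, and Mest holds miR-335 in an intron. Their 5p arms are shown for comparison, because these hosts did not pass the test.
mmu-miR-770-5p: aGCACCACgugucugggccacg
mmu-miR-675-5p: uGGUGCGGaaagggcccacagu
mmu-miR-335-5p: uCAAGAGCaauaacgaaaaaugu

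Some facts of the libraries bear on all that follows. Total counts per mouse were between 2184073 and 3897787, so that 3 counts stood for 0.768 to 1.36 CPM (counts per 1e+06 after TMM scaling). Dio2 had 21, 5 and 10 counts in the WT libraries and 15, 5 and 1 in the cD2KO ones. That is 3.56 ± 1.77 CPM for WT and 2.94 ± 3.41 CPM for cD2KO (SD, n = 3; two-sided exact permutation test, p = 0.7, with 0.1 the smallest p that 3 mice against 3 allow). The library labelled fl125 thus had the highest Dio2 level of all, which goes against its label, although reads outside the floxed part would not report a deletion. Its 6.8 CPM, against 5.38 CPM in c124, came from 15 and 21 counts, too few to settle the order of these libraries. Counts summed over 15 MuSC markers were 2187 to 2858 CPM for WT and 3040.3 to 3875 CPM for cD2KO, and 4 of the 15 (Des, Itga7, Cdh15 and Myf5) were higher in cD2KO and 0 lower. Des was at 324, 249 and 367 CPM for WT and 451, 527 and 838 CPM for cD2KO. Pax7 and Chodl overlapped between the groups, and Chodl was lowest in fl128 (542 CPM). The summed level is thus not that of each marker. Markers of other cells were also present. The 14 immune markers summed to 4025 to 7331 CPM for WT and 217 to 2351 CPM for cD2KO, with fl125 the lowest, and 3 passed the test as lower. The 10 mural markers summed to 5495 to 9386 CPM for WT and 11165 to 16379.6 CPM for cD2KO, with 4 higher (Acta2, Myh11, Tagln and Cnn1). Acta2 had a mean of 2656 CPM for WT and 5978 CPM for cD2KO. The rest of the mural markers overlapped between the groups. Rgs5 was level at means of 1455 and 1461 CPM, Pdgfrb, Kcnj8 and Abcc9 had lower means in cD2KO, and Cspg4 and Higd1b higher ones. Endothelial markers were lower for 6 of 11 tested, fibroadipogenic ones higher for 1 and lower for 4 of 11, Schwann cell ones lower for 2 of 6, muscle fibre ones higher for 1 of 10, tendon ones for 0 of 4 in either direction, and those of dividing cells lower for 5 of 10. In the sex-linked list 1 of 4 tested genes was lower. The part of these shifts in the results below was not tested.

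Over all 11633 genes tested with edgeR's quasi-likelihood test, 621 genes (5.34%) were higher in cD2KO and 770 (6.62%) lower at an unadjusted p under 0.05, the line the study drew, and 90 had a Benjamini-Hochberg adjusted p under 0.1. Of the 8 imprinted genes tested, 1 was higher (Mirg) and 0 were lower. DESeq2 and limma voom gave the same counts of 1 and 0. At an adjusted p under 0.1 none of the 8 was called. The log2 fold change was above 0 for 5 of the 8, with a median of 0.121, against -0.0204 over all genes tested. In cD2KO all 3 mice were above all WT mice for 942 of the 11633 genes (8.1%) and below them for 1164 (10%). Of the 8 imprinted genes, 1 was above in this way, again Mirg, and 0 were below.

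**Figure D1:**
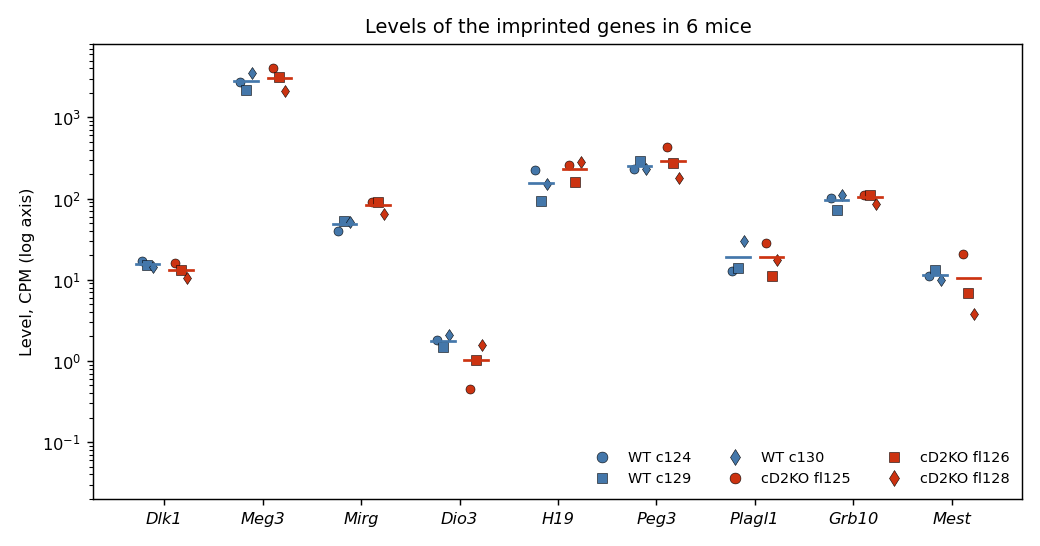
Level of each imprinted gene with values in each mouse, in CPM on a log axis, with WT in blue, cD2KO in red and a bar at the group mean. The groups did not overlap for Mirg (39.9 to 52.3 CPM for WT and 65.1 to 91.5 CPM for cD2KO) and overlapped for the other 8 genes.

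Mirg (ENSMUSG00000097391, chr12:109729764-109749460, plus strand) is the noncoding RNA at the far end of the maternally expressed transcripts. It had 156, 142 and 150 counts in the WT libraries and 202, 266 and 207 in the cD2KO ones. Scaled to library size these were 39.9, 52.3 and 51.9 CPM for WT and 91.5, 91.0 and 65.1 CPM for cD2KO. Every cD2KO library was above every WT library, and fl128 was the nearest to WT.

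The mean of Mirg was 48.1 ± 7.03 CPM for WT and 82.5 ± 15.1 CPM for cD2KO (SD, n = 3 mice each). The log2 fold change was 0.78 with a standard error of 0.224 (edgeR quasi-likelihood test, adjusted p = 0.156). The difference was larger than the spread between mice at an unadjusted p under 0.05, and it did not pass after adjustment over all genes. Leaving out 1 mouse at a time gave log2 fold changes between 0.66 and 0.93, with an unadjusted p under 0.05 in 6 of 6 such fits. Without the library labelled fl125 it was 0.74, also at an unadjusted p under 0.05. The exact permutation test of the CPM gave p = 0.1, the smallest it can give here. GENCODE lists no other gene with counts over Mirg, on either strand. In sorted bulk RNA, a change in the number of cells of a type cannot be told apart from a change in RNA per cell. The summed levels of MuSC and mural markers were, like Mirg, higher in every cD2KO library than in every WT one. Single markers in these sums differed, and Pax7, Chodl and Rgs5 overlapped between the groups. The part of these markers in the result for Mirg was not tested.

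Meg3 (ENSMUSG00000021268, chr12:109541001-109571726, plus strand), a noncoding RNA known as a growth suppressor, was far more abundant. It had 10631, 5889 and 10153 counts in the WT libraries and 8814, 9226 and 6714 in the cD2KO ones. In each library it took between 0.199% and 0.404% of all counts, and it ranked 24 among the genes by mean CPM. The level was 2721, 2169 and 3515 CPM for WT and 3994, 3157 and 2110.5 CPM for cD2KO. The highest and the lowest of the 6 libraries were both cD2KO, fl125 and fl128, and the WT range lay between them.

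The group means of Meg3 were 2802 ± 676 CPM for WT and 3087 ± 944 CPM for cD2KO (SD, n = 3). The log2 fold change of 0.14 (SE 0.259; edgeR, adjusted p = 0.894) was within the spread between mice. It turned to -0.055 without the library labelled fl125, so no direction can be given. Gm26906, on the opposite strand, overlaps Meg3, and the use of strand in counting is not given in the sources used here.

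Dlk1 (ENSMUSG00000040856, chr12:109452823-109463336, plus strand) encodes a membrane protein of the Notch ligand type that is expressed from the paternal chromosome. It had 66, 41 and 42 counts in the WT libraries and 36, 38 and 33 in the cD2KO ones. Its level was 16.9, 15.1 and 14.5 CPM for WT and 16.3, 13 and 10.4 CPM for cD2KO. The library labelled fl125 lay within the WT range, and fl126 and fl128 lay under it. The means of 15.5 ± 1.23 CPM for WT and 13.2 ± 2.98 CPM for cD2KO (SD, n = 3) differed by less than the spread between mice (log2 fold change -0.24, SE 0.345; edgeR, adjusted p = 0.853).

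Dio3 (ENSMUSG00000075707, chr12:110279068-110281097, plus strand) was close to the floor of detection. The WT libraries had 7, 4 and 6 counts and the cD2KO ones 1, 3 and 5. In CPM these were 1.79, 1.47 and 2.08 in WT and 0.453, 1.03 and 1.57 in cD2KO. fl125 and fl126 were under all WT mice, and fl128 was above the WT mouse c129. The latter rested on 5 counts in fl128 and 4 in c129 and on the TMM scaling. Under total count scaling the exact permutation test gave p = 0.1, the smallest possible with 3 mice against 3. The means were 1.78 ± 0.302 and 1.02 ± 0.559 CPM (SD, n = 3; two-sided exact permutation test, p = 0.2), and a difference was not detectable at this depth. Of the 3 deiodinases, Dio1 had 0 counts in every library, which allows up to 0.768 to 1.36 CPM, and neither Dio2 nor Dio3 reached the expression minimum.

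B830012L14Rik (chr12:109695586-109702587, plus strand), is a noncoding RNA annotated between Rian and Mirg. It was named, after its values were seen, because Rian was not analysed. It had 109, 111 and 79 counts in the WT libraries and 43, 84 and 88 in the cD2KO ones. Its level was 27.9, 40.9 and 27.3 CPM for WT and 19.5, 28.7 and 27.7 CPM for cD2KO. The groups overlapped, with fl125 the lowest of the 6, where Mirg had its highest level (log2 fold change -0.33, SE 0.289; edgeR, adjusted p = 0.718). Gm26945, within the span of Rian, had 2 counts in c129 and 0 in the other 5 libraries.

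**Figure D2:**
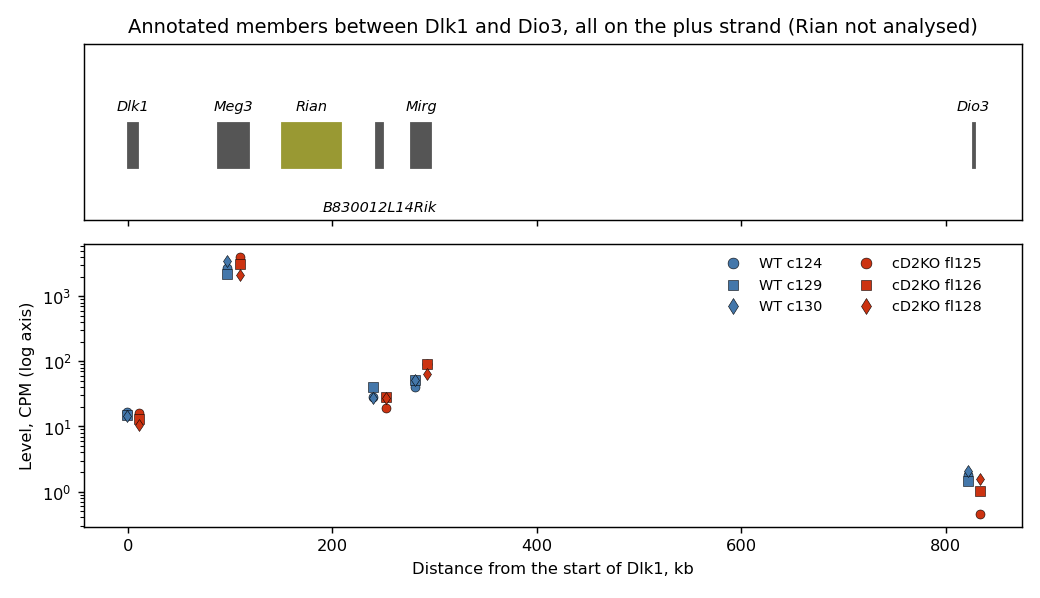
Upper panel, the annotated spans of Dlk1, Meg3, Rian, B830012L14Rik, Mirg and Dio3 by distance from the start of Dlk1 in kb. Lower panel, the level of each in each mouse in CPM on a log axis, with WT (blue) drawn to the left of cD2KO (red) at each gene and Rian not analysed. Meg3 stood between 2110.5 and 3994 CPM and Dio3 between 0.453 and 2.08 CPM, and Mirg was the gene whose groups did not overlap.

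Because Meg3 and Mirg are expressed from the same chromosome and strand, their counts were also summed. The sum was 2761, 2221 and 3567 CPM for the WT mice and 4086, 3249 and 2176 CPM for cD2KO. Meg3 made up nearly all of it, so the sum has the order of Meg3 and the groups overlapped. The means of 2849.8 ± 677 CPM for WT and 3170 ± 958 CPM for cD2KO (SD, n = 3) differed by 320.2 CPM (two-sided exact permutation test, p = 0.8). With B830012L14Rik and Gm26945 added the difference was 313 CPM (exact permutation test, p = 0.8).

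Ratios within a library do not depend on its scaling, and 4 were compared. Per 100 reads on Meg3 there were 1.47, 2.41 and 1.48 reads on Mirg in the WT libraries and 2.29, 2.88 and 3.08 in the cD2KO ones. fl126 and fl128 were above all WT mice, and fl125 lay under c129. On the log2 scale the ratio of Mirg to Meg3 was -5.85 ± 0.41 in WT and -5.19 ± 0.22 in cD2KO (SD, n = 3), a difference of 0.65 (two-sided exact permutation test, p = 0.2, adjusted over the 4 ratios p = 0.267). Mirg therefore was not shown to differ from Meg3 in its change.

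Per 100 reads on B830012L14Rik there were 143, 128 and 189.9 reads on Mirg in WT and 469.8, 317 and 235 in cD2KO. The groups did not overlap. The log2 ratio was 0.60 ± 0.29 in WT and 1.71 ± 0.50 in cD2KO (SD, n = 3), a difference of 1.11 (two-sided exact permutation test, p = 0.1, the smallest possible, adjusted p = 0.267). This ratio was chosen after the values were seen. The log2 ratio of Dlk1 to Meg3, a paternally against a maternally expressed gene, was -7.47 ± 0.39 in WT and -7.84 ± 0.15 in cD2KO, and the groups overlapped (difference -0.37; exact permutation test, p = 0.2, adjusted p = 0.267). The log2 ratio of B830012L14Rik to Meg3 was -6.45 ± 0.65 in WT and -6.90 ± 0.72 in cD2KO (difference -0.46; exact permutation test, p = 0.5, adjusted p = 0.5).

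**Figure D3:**
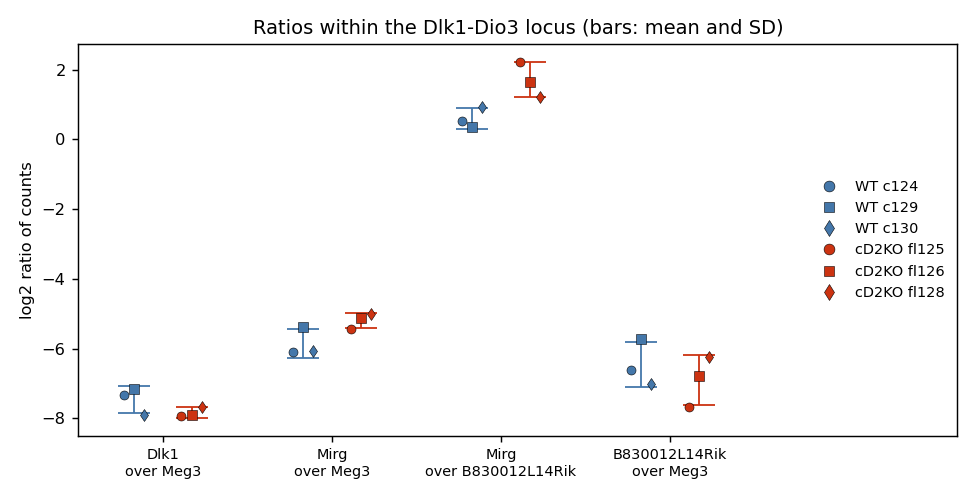
The 4 ratios of counts between genes of the locus in each mouse, on the log2 scale, with WT in blue, cD2KO in red and bars at the mean and 1 SD to each side. The groups separated for Mirg over B830012L14Rik (0.36 to 0.93 in WT and 1.23 to 2.23 in cD2KO) and overlapped for the other 3.

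H19 (ENSMUSG00000000031, chr7:142575529-142578143, minus strand) is a maternally expressed noncoding RNA that is linked to growth control together with its neighbour Igf2. It had 877, 256 and 429 counts in the WT libraries and 577, 462 and 902 in the cD2KO ones. Its level was 225, 94.3 and 149 CPM for WT and 261, 158 and 284 CPM for cD2KO. fl125 and fl128 were above all WT mice, whereas fl126 was between c130 and c124.

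The means of H19 were 156 ± 65.4 CPM for WT and 234 ± 67.0 CPM for cD2KO (SD, n = 3), and the log2 fold change of 0.58 (SE 0.31; edgeR, adjusted p = 0.5) did not pass at an unadjusted p under 0.05. This value rested on single mice more than that of Mirg. It was 0.95 without c124, 0.80 without fl126 and 0.61 without an expression minimum, each at an unadjusted p under 0.05, whereas it was 0.35 without c129 and did not pass.

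Peg3 (ENSMUSG00000002265, chr7:6703892-6730431, minus strand) encodes a zinc finger protein expressed from the paternal chromosome, known as a marker of several adult stem cells. It had 896, 788 and 674 counts in the WT libraries and 944, 795 and 562 in the cD2KO ones. Its level was 229, 290.2 and 233 CPM for WT and 428, 272 and 177 CPM for cD2KO. As for Meg3, the highest and the lowest of the 6 were fl125 and fl128. The means were 251 ± 34.1 and 292 ± 127 CPM (SD, n = 3; log2 fold change 0.22, SE 0.275; edgeR, adjusted p = 0.831). Without fl125 the log2 fold change was -0.13.

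The promoters of the members were searched for known motifs, whatever their levels in the libraries. Windows from 250 bases before to 50 bases after the annotated start were read from the RefSeq promoters of GRCm38.p6, where 13 windows of 9 members were found, and 4 motifs were searched on both strands. TGACGTCA, the cAMP response element, is a site of the CREB family of transcription factors and reads the same on both strands. It was in the windows of Meg3 and Peg3 and in no other member's, and 1.79% of all 32807 promoters hold it. The windows are chr12:109540746-109541045 (plus strand) for Meg3 and chr7:6730370-6730669 (minus strand) for Peg3, and they are printed in the direction of transcription with the element in capitals.
Meg3: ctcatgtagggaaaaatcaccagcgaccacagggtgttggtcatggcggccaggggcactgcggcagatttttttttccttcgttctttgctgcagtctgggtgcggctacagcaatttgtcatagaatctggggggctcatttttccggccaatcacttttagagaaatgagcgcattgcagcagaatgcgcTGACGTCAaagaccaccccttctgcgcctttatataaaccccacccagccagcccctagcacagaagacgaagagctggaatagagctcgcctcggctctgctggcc
Peg3: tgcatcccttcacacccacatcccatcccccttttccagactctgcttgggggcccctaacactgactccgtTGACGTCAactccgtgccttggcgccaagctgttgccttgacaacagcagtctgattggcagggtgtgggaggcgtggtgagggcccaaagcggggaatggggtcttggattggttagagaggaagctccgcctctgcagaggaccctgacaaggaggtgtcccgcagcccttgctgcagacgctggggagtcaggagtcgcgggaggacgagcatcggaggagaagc

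The letters AGGTCA, the core to which thyroid hormone receptors bind, were found in 1 window, at another annotated start of Meg3 (chr12:109545148-109545447), and in 16.3% of all promoters. A direct repeat of these cores with 4 bases between them, which contains the former, was in 0 of the 13 windows and in 0.0152% of all promoters. GGGGCCCC, a site of Plagl1, was in the window of Peg3 and in 1.07% of all promoters. A match of letters is a description of the window and no evidence of binding. The windows ranged from that of Grb10, with 80.0% G and C and 45 CpG, to the one for Rian, with 49.3% and 0 CpG, against medians of 52.7% and 7 CpG over all promoters. The window of Mirg (51.3%, 10 CpG) lies inside the span that GENCODE gives the gene.

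Plagl1 (ENSMUSG00000019817, chr10:13060504-13131694, plus strand), a paternally expressed zinc finger protein that restrains growth, was at low levels. It had 50, 38 and 86 counts in the WT libraries and 62, 32 and 56 in the cD2KO ones. The level was 12.8, 14 and 29.8 CPM for WT and 28.1, 11.0 and 17.6 CPM for cD2KO. In each group 1 mouse (c130 and fl125) was well above the other two. The means were 18.9 ± 9.47 and 18.9 ± 8.64 CPM (SD, n = 3; log2 fold change -0.0070, SE 0.418; edgeR, adjusted p = 0.997).

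Grb10 (ENSMUSG00000020176, chr11:11930508-12038683, minus strand) encodes an adaptor that dampens signalling of the insulin and IGF receptors, and is maternally expressed in most tissues. It had 398, 198 and 319 counts in the WT libraries and 244, 322 and 276 in the cD2KO ones. Its level was 102, 72.9 and 110.4 CPM for WT and 111, 110.2 and 86.8 CPM for cD2KO. The coefficient of variation was 20.7% in WT and 13.3% in cD2KO. The means were 95.1 ± 19.7 and 103 ± 13.6 CPM (SD, n = 3; log2 fold change 0.10, SE 0.214; edgeR, adjusted p = 0.906).

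Mest (ENSMUSG00000051855, chr6:30723547-30748465, plus strand), a paternally expressed gene of the alpha/beta hydrolase family, had the widest spread among cD2KO mice of the 8 genes. It had 43, 36 and 29 counts in the WT libraries and 46, 20 and 12 in the cD2KO ones. The level was 11.0, 13.3 and 10 CPM for WT and 20.8, 6.84 and 3.77 CPM for cD2KO. The coefficient of variation was 14.4% in WT and 86.8% in cD2KO, since fl125 was above all WT mice and the other 2 were below all of them. The log2 fold change was -0.16 (SE 0.542; edgeR, adjusted p = 0.948). It was -1.07 without fl125 and 0.26 without fl128, and passed in neither fit. Copg2 and Gm44296 overlap Mest on the opposite strand, so its counts may hold reads of those genes if strand was ignored.

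Across most of these genes the cD2KO libraries kept an order, but not for H19 and Plagl1. For Mirg (91.5 and 91.0 CPM) and Grb10 (111 and 110.2 CPM), fl125 and fl126 were nearly level. The library labelled fl125 was the highest of the 3 cD2KO mice for 7 of the 8 genes tested and the highest of all 6 mice for 5 of them. fl128 was the lowest of the cD2KO mice for 6 of the 8 and the lowest of all 6 for 4. The 15 MuSC markers were mixed, with fl125 the highest of the cD2KO mice for 7 and the lowest for 6, and fl128 the lowest for 8 and the highest for 5. Pax7, one of them, was at 408, 211 and 431 CPM in WT and 688, 452 and 314 CPM in fl125, fl126 and fl128, the same order of the cD2KO mice as that of Meg3, Dlk1, Mirg, Peg3, Grb10 and Mest. This order is a description of 3 libraries, and the part of cell composition in it was not tested. How many of all genes tested take the same order was not counted, so it cannot be called a trait of the imprinted genes.

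Levels of different genes were compared per kb of annotated exon, which assumes that reads cover the whole length of each gene. Meg3 led with a mean over the 6 mice of 163 CPM per kb, followed by H19 with 79.3, Peg3 with 20.4, Grb10 with 10.9 and Mirg with 8.96 CPM per kb. Mest, Dlk1 and Plagl1 were at 2.78, 2.54 and 2.41 CPM per kb, and Dio3 at 0.689. The lowest mouse for Meg3 (117 CPM per kb) was above the highest for H19 (115), and the lowest for H19 (38.3) was above the highest for Peg3 (32.1). The lowest for Peg3 (13.3) was above the highest for Grb10 (12.2). Over the 6 mice Grb10 and Mirg overlapped, but not in WT alone. In WT Grb10 was at 11.2, 8.02 and 12.1 CPM per kb, above Mirg (5.48, 7.17 and 7.12) in every mouse. In cD2KO they overlapped, with 12.2, 12.1 and 9.55 for Grb10 and 12.6, 12.5 and 8.92 for Mirg. Mest, Dlk1 and Plagl1 overlapped among themselves, so they did not differ beyond their spread. The lowest mouse for Mirg (5.48) was above the highest for Mest (5.28).

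The other imprinted genes gave a wider view. Of 55 further genes with known imprinting, listed by hand, 54 had values and 38 were tested. The counts do not show which of them are imprinted in these cells. Calcr was also among the MuSC markers and Dcn among the fibroadipogenic ones. Of the 38, 3 were higher in cD2KO and 0 lower by edgeR at an unadjusted p under 0.05, against 5.34% and 6.62% of all genes, and 0 of the 38 had an adjusted p under 0.1. DESeq2 called 4 higher and limma voom 0, and both called 0 lower. The log2 fold change was above 0 for 23 of the 38, with a median of 0.126. Among 23 tested genes listed as maternally expressed the median was 0.0471 with 3 higher. Among 15 listed as paternally expressed it was 0.189 with 0 higher and 0 lower.

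All 3 of the called genes were listed as maternally expressed, and in each the groups overlapped. The counts do not show whether they are imprinted in these cells. Slc22a2, an organic cation transporter next to Igf2r, was at 5.12, 5.52 and 3.12 CPM for WT and 15.0, 3.08 and 22.3 CPM for cD2KO (log2 fold change 1.54, SE 0.616; edgeR, adjusted p = 0.354). Osbpl5, which carries lipids between membranes, was at 65.8, 83.2 and 66.8 CPM for WT and 77.9, 91.0 and 151 CPM for cD2KO (0.57, SE 0.25; edgeR, adjusted p = 0.389). Nap1l4, a histone chaperone of the same imprinted domain as Osbpl5, was at 62, 40.5 and 71.0 CPM for WT and 121, 82.5 and 60.7 CPM for cD2KO (0.60, SE 0.277; edgeR, adjusted p = 0.416). For Slc22a2 fl126 lay with the WT mice, for Osbpl5 fl128 stood above the other 5, and for Nap1l4 fl125 did.

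**Figure D4:**
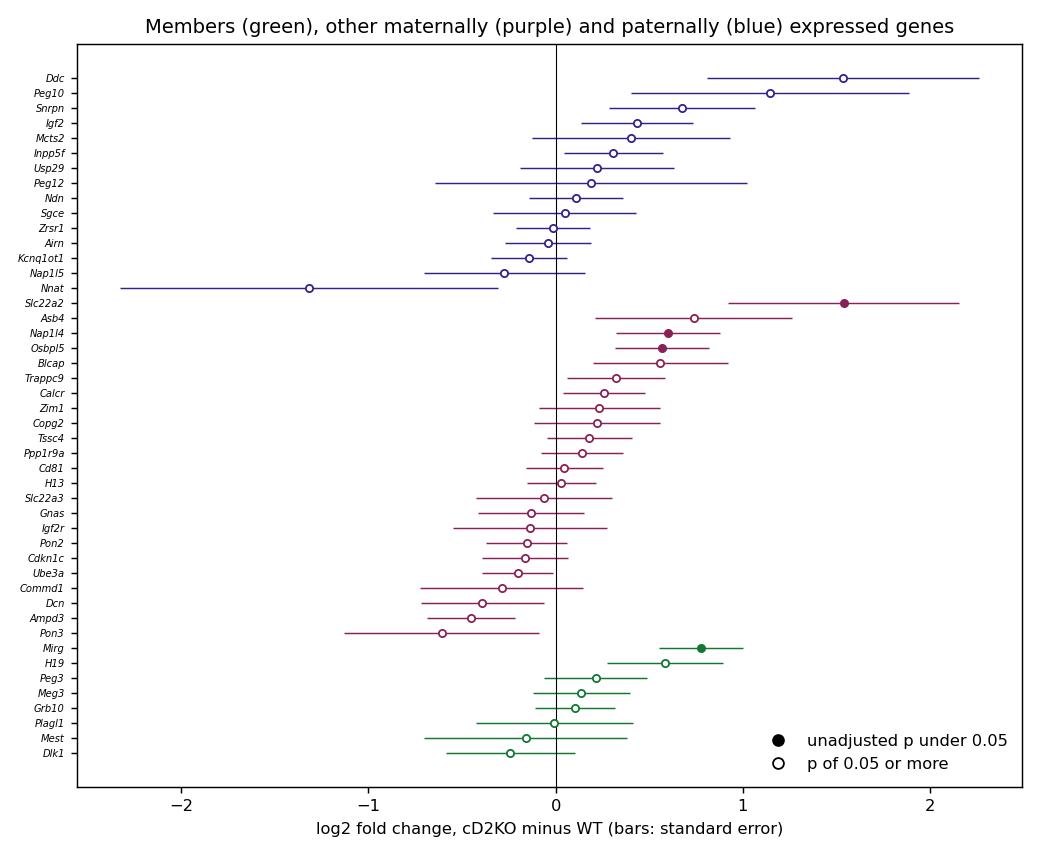
The log2 fold change of each tested imprinted gene, cD2KO minus WT, with its standard error. Shown are the 8 members (green), 23 other genes listed as maternally expressed (purple) and 15 listed as paternally expressed (blue). Filled points mark an unadjusted p under 0.05, which Mirg (0.78), Slc22a2 (1.54), Nap1l4 (0.60) and Osbpl5 (0.57) reached.

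Genes on either side of the locus that are not imprinted or only weakly so, and Dio3os, were listed as neighbours. Of 11, 10 had values and 8 were tested, and 0 were higher and 0 lower by edgeR at an unadjusted p under 0.05. Their median log2 fold change was 0.279. The largest were those of Slc25a47, a mitochondrial carrier at 2.21 ± 1.75 CPM for WT and 4.94 ± 2.42 CPM for cD2KO (SD, n = 3; 1.08, SE 0.787), and Begain (0.50, SE 0.524), both near the expression minimum and named after their values were seen.

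Genes whose level followed that of Meg3 and Mirg summed were ranked by Pearson's r of log2 CPM over the 6 mice, as a description. The highest were Rbl2 (0.989), a relative of the retinoblastoma protein that is linked to quiescence, Nipal3 (0.988), Usp29 (0.987), Hnrnpa0 (0.983) and Eif4h (0.983). The points are 6 libraries from both groups that differ in depth and composition, and 148 of 11631 genes had an r over 0.9. Usp29 is imprinted and paternally expressed, from the domain of Peg3. It was at 15.1, 12.5 and 26.0 CPM for WT and 30.8, 21.9 and 10.4 CPM for cD2KO, the same order of the 6 mice as the summed level of Meg3 and Mirg. Between the groups Usp29 did not pass the test (log2 fold change 0.22, SE 0.412; edgeR, adjusted p = 0.894).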

How the data were processed

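Libraries were made from the RNA of MuSCs of 6 mice, each mouse on its own. RNA was purified with the RNeasy Mini Kit, and the submitters' processing notes list bcl2fastq, STAR 2.6.0a, HTSeq 0.9.1 and mm10. The authors deposited raw counts per gene as whole numbers that were not normalized. Which annotation was counted, whether strand was used and how duplicates were treated is not given in the sources used here. The genotype labels gave the groups. The names mark separate mice, so the p-values measure the spread between these mice.

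Genes were kept when their mean count, after scaling by DESeq2 size factors, exceeded 10, the limit the study used. TMM factors scaled the counts, and edgeR 4.0.16 (quasi-likelihood, robust, all 6 mice together, without covariates) in R 4.3.3 tested 11633 genes, over which p-values were adjusted (Benjamini-Hochberg). A gene was called at an unadjusted p under 0.05. Two-sided exact permutation tests served for sums, ratios and genes under the minimum. CPM used library sizes multiplied by the TMM factors, and log2 CPM a prior count of 2. Floors of 3 counts cover counting error only. GENCODE M21 gave symbols and coordinates (30934 of 31053 identifiers matched), and RefSeq for GRCm38.p6 gave sequences.

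The members and lists were chosen with earlier results of these data known. Text names the 10 members, Dio2, genes of the lists that were called (at most 10 a direction) and the 5 genes most like Meg3 and Mirg summed. Called marker genes are mostly given as counts. As alternatives, DESeq2 1.42.0, limma 3.58.1 with voom, other scalings and minimums, non-robust estimation, leaving out each mouse and an adjusted p under 0.1 were run. In simulated counts of these libraries edgeR called 72% of 100 genes that differed by 1 (log2), 95% of 100 that differed by 2, and 4.78% of 11433 that did not differ.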

Additional observations from a re-analysis of the deposited data

How the results depend on the processing

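Mirg kept its direction and an unadjusted p under 0.05 under all 8 other tests, scalings and minimums, with log2 fold changes between 0.75 and 0.81, and in 6 of 6 fits without 1 mouse. H19 passed without a minimum (0.61), without c124 (0.95) and without fl126 (0.80), which took the members higher to 2, and to 1 to 2 over the fits without 1 mouse. At an adjusted p under 0.1, members higher fell to 0, the wider list to 0, and genes to 33 higher and 57 lower. The wider list had 0 higher with voom and with a minimum mean of 50 (median 0.0152), and 1 lower with no minimum. Genes lower were 505 with a minimum mean of 50, and genes higher 939 with no minimum. Without 1 mouse, genes higher ranged from 406 (without fl128) to 934 (without fl125), genes lower from 408 (without c129) to 866 (without fl125), and the wider list from 1 to 5 higher, 0 to 1 lower and a median of 0.0388 to 0.163.

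Some small changes turned their sign. Plagl1 was at 0.014 with the DESeq2 Wald test, 0.012 with DESeq2 size factors and 0.021 with no minimum, and ranged from -0.35 without fl125 to 0.51 without c130 (0.27 without fl126, 0.037 without fl128). Grb10 ranged from -0.030 without c129 to 0.25, Meg3 from -0.055 without fl125 to 0.36, Peg3 from -0.13 without fl125 to 0.48, and Mest from -1.07 without fl125 to 0.26 without fl128 (0.071 without fl126). The cause was not tested. The summed level of Meg3 and Mirg differed by 209.6 CPM under total count scaling and from -138 (without fl125) to 817 CPM (without fl128), always with an exact permutation p of at least 0.4.

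The planned ratios with Rian and its part in the sum were not run, and other ratios were added after seeing the data. No paired analysis was possible because the labels give the mice no shared replicate numbers. Depth limits Dio2 and Dio3, which had at most 21 and 7 counts.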

Other observations

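Beyond the genes described, the tested imprinted gene with the largest standard error of its log2 fold change was Nnat. It is a paternally expressed membrane protein of endocrine and neural cells and is named here after its values were seen. Nnat was at 62.7, 13.3 and 9.69 CPM in WT (c124, c129, c130) and 24.0, 8.90 and 3.14 CPM in the libraries labelled fl125, fl126 and fl128 (log2 fold change -1.32, SE 1.01; edgeR, adjusted p = 0.696). The groups overlapped, and c124 stood above the other 5 mice. Igf2, the paternally expressed growth factor beside H19, was at 23.6, 23.2 and 24.6 CPM for WT and 20.4, 41.1 and 34.6 CPM in fl125, fl126 and fl128 (0.43, SE 0.3; edgeR, adjusted p = 0.619).

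Of the 38 tested genes of the wider list, 1 was above in every cD2KO library (8.1% of all genes tested) and 1 below (10%), neither at an unadjusted p under 0.05, and both are named after their values were seen. Tssc4 was at 35.6 to 44.7 CPM for WT and 44.8 to 48.9 CPM for cD2KO (edgeR, adjusted p = 0.826). Ampd3, an AMP deaminase, was at 56.7 to 70.7 CPM for WT and 34.6 to 52.4 CPM for cD2KO (edgeR, adjusted p = 0.48).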
